A study of Mus musculus with 89 samples.

Results

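The splicing factors and hnRNP proteins described here are the 55 genes, of 24411 in the deposited count table, whose names begin with Hnrnp (20 genes), Srsf and a digit (11), Sf3a or Sf3b and a digit (9), Snrp (12) or U2af (3), with pseudogene entries left out. They were chosen by name alone. All 55 had reads in at least 1 of the 89 cells.

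The cells came from the dentate gyrus of mice homozygous for Nestin:CFPnuc, a transgene in which regulatory sequence of the nestin gene drives a nuclear cyan fluorescent protein, on a C57BL/6 background. Single cells were sorted by flow cytometry after a viability stain, and their RNA was amplified as full-length cDNA with SMART-Seq v4. All groups carried the same transgene, and the labels name no treatment. The study set 41 cells from mice aged 4.5 months beside 48 cells from mice aged 2 months. The submitters placed 11 cells in the class of intermediate progenitors (IPC, 6 at 4.5 months and 5 at 2 months), 18 in the class of active neural stem cells (aNSC, 7 and 11) and 60 in that of quiescent neural stem cells (qNSC, 28 and 32). Their table also gives each qNSC cell a colour, green for 25 cells (10 at 4.5 months and 15 at 2 months), red for 26 (13 and 13) and blue for 9 (5 and 4). The aNSC cells were split here at 10 counts of Pdgfra, a receptor gene that marks oligodendrocyte precursors, into 7 Pdgfra+ cells (3 at 4.5 months and 4 at 2 months) and 11 Pdgfra- cells (4 and 7). How the class and the colour were assigned is not given in the sources used here, so a difference between classes or colours may have been part of how they were drawn.

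Pre-mRNA splicing is carried out by the spliceosome, which is built from small nuclear ribonucleoprotein particles (snRNPs). The Snrp genes encode proteins of these particles, including the Sm proteins that form a ring around the small nuclear RNA; the Sf3a and Sf3b genes encode the protein complexes with which the U2 snRNP recognises the branch site; and the U2af genes encode the factors that mark the 3' splice site for it. SR proteins (Srsf) bind exons and generally favour their inclusion, whereas heterogeneous nuclear ribonucleoproteins (Hnrnp) coat nascent transcripts and often oppose inclusion. Neural differentiation is known for extensive changes in alternative splicing, in which several of these regulators take part.

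Each deposited sample was 1 cell, and the labels name no animal. Each group therefore counts as 1 sample, no test between groups was possible, and every SD below is the spread over cells. A gene was called measured in a comparison when 20% or more of the cells in 1 of the groups compared had a read, and past the fold when its mean log2(CPM + 1), where CPM is the count scaled to the cell's total, differed by at least 1 and its summed CPM, the gene's counts pooled over the group and scaled to the group's total, differed at least 2-fold in the same direction. Total counts per cell were 234608 at the lowest, 912394 at the median and 1896075 at the highest. The median number of genes read was 4647 in IPC, 4999 in Pdgfra+ aNSC, 4145 in Pdgfra- aNSC and 3714 in qNSC cells. Marker lists matched the class labels in part. At least 50% of a list of IPC markers reached 10 counts in 8 of 11 IPC cells and in no other cell, and 50% of a list of qNSC markers did so in 58 of 60 qNSC and in all 11 Pdgfra- aNSC cells, but also in 6 IPC and 2 Pdgfra+ aNSC cells. The same threshold was met for oligodendrocyte precursor markers in 7 of 7 Pdgfra+ aNSC cells and in no other cell. Their summed TPM was 4955 to 11894 in Pdgfra+ aNSC cells, against 0 to 175 in Pdgfra- aNSC cells, which had no count of Pdgfra, Sox10, Neu4 or Lhfpl3. The part of oligodendrocyte lineage transcripts in any difference of Pdgfra+ cells was not tested. Single cells also held markers of other types: summed TPM of oligodendrocyte markers reached 24810 in a green qNSC cell (green median 0.89), and among Pdgfra- aNSC cells that of endothelial markers reached 6449 (median 5.85) and that of mural markers 10921 (median 10.1). Without the 5 cells that held 10 counts of at least 50% of such a list, 30 genes were past the fold and higher in IPC than in Pdgfra- aNSC cells and 0 lower, against 29 and 0 with them. The 2 ages also differed in sex-linked transcripts: among cells at 4.5 months 0 of 41 had 10 or more Y-linked counts and 37 had as many counts of Xist or its antisense gene Tsix, against 38 and 0 of the 48 cells from 2-month-old mice. The labels give no sex, and age and this difference cannot be told apart.

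Promoter sequence was taken from RefSeq (GRCm38.p6), in which 48 of the 55 genes had an entry of 250 bases before and 50 bases after the start. Of the 48 windows 23 (47.9%) held a CCAAT box (CCAAT, searched on both strands like every motif), against 39% of 17491 protein-coding genes. The ETS motif CCGGAAGT was in 8 windows (16.7%, against 5.29%), the E2F motif, spelled TTTCCCGC or TTTGGCGC, in 4 (8.33%, against 2.09%), and the TATA box TATAAA in 6 (12.5%, against 13.3%). The windows held a median of 25 CpG dinucleotides, against 13 over all protein-coding genes, at a median GC content of 60.2%, against 56.3%. These counts describe letters in a window and say nothing of binding. The 250 bases before the start are printed for 4 genes on which the results below turn. Hnrnpa1, at chr15:103240147-103240396 on the plus strand, was the 1 gene of the 55 that separated every IPC from every Pdgfra- aNSC cell, and Hnrnpa2b1, at chr6:51469895-51470144 on the minus strand, is its paralog with a level closer to even across classes. Srsf5, at chr12:80945249-80945498 on the plus strand, was read in every cell. Srsf10, at chr4:135855821-135856070 on the plus strand, held the most E2F motifs and was lower at 4.5 months in qNSC cells. Capitals mark CCAAT boxes, ETS motifs and E2F motifs on either strand (CCAAT reads ATTGG, CCGGAAGT reads ACTTCCGG and TTTCCCGC reads GCGGGAAA on the opposite strand), and each sequence runs 5' to 3' towards the start.
Hnrnpa1: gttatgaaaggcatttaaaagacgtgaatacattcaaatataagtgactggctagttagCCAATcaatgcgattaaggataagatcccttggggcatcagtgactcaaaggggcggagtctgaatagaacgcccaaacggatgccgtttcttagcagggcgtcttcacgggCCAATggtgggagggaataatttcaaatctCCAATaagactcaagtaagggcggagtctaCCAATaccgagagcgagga
Hnrnpa2b1: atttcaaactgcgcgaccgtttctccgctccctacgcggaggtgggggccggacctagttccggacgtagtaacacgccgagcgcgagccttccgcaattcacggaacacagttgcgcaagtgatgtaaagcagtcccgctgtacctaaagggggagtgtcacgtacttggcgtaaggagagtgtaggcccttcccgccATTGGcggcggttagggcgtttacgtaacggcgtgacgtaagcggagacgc
Srsf5: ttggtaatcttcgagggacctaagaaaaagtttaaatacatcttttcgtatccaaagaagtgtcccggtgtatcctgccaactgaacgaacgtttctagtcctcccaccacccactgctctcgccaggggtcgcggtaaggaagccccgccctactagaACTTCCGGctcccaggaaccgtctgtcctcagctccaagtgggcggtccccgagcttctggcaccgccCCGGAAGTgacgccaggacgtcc
Srsf10: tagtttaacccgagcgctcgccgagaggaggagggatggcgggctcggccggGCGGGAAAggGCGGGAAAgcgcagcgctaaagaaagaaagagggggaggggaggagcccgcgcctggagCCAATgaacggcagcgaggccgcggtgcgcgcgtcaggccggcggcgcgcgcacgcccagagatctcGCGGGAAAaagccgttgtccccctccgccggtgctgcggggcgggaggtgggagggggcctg
Hnrnpa1 held 4 CCAAT boxes within these bases and Hnrnpa2b1 held 1. Srsf5 held 2 ETS motifs, and Srsf10 held 3 E2F motifs and 1 CCAAT box.

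As a group, the 55 genes took the largest part of the transcriptome in IPC cells. Their summed TPM (TPM is a level scaled by transcript length) was 1.86% of the cell at the lowest, 2.24% at the median and 3.06% at the highest in IPC cells. In Pdgfra+ aNSC cells these shares were 1.15%, 1.5% and 1.74%, in Pdgfra- aNSC cells 0.647%, 1.13% and 1.91%, and in qNSC cells 0.235%, 0.694% and 1.44%. No IPC cell overlapped with a Pdgfra+ aNSC or a qNSC cell, and the highest Pdgfra- aNSC cell lay just above the lowest IPC cell. Among qNSC cells the median was 1.01% in green, 0.611% in red and 0.571% in blue cells. The blue cells spanned 0.235% to 1.44%, and the blue cell at 1.44% owed most of it to 1 gene, Snrpe, at 10327 TPM.

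**Figure D1:**
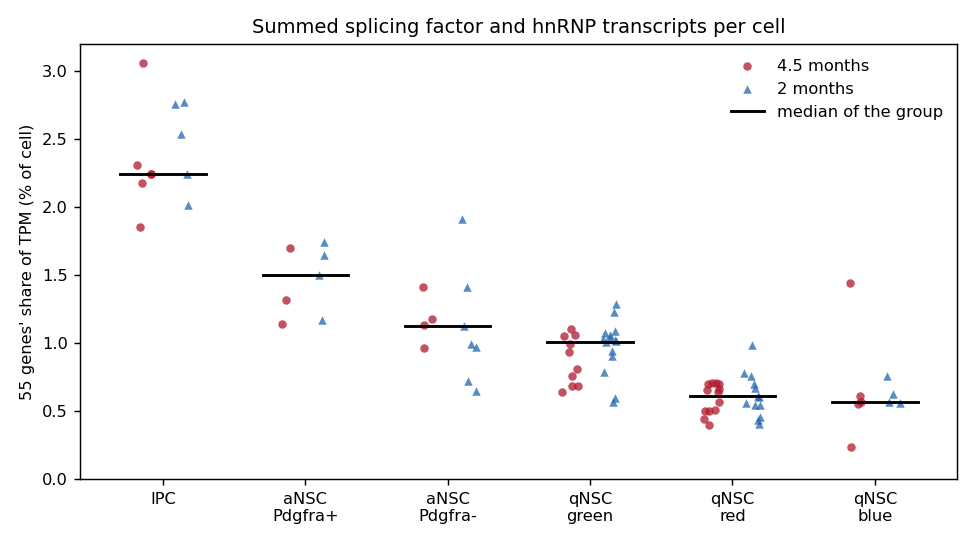
Summed TPM of the 55 splicing factor and hnRNP genes in each cell, as a percent of the cell's TPM (vertical axis), for the classes and qNSC colours (horizontal axis); each point is 1 cell, circles at 4.5 months and triangles at 2 months, and lines are medians. IPC cells lie between 1.86% and 3.06%, and the medians are 1.5% in Pdgfra+ aNSC, 1.13% in Pdgfra- aNSC and 1.01% in green qNSC cells.

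The families did not contribute in one proportion. The Hnrnp genes took a median of 0.824% of TPM in IPC, 0.534% in Pdgfra+ aNSC, 0.312% in Pdgfra- aNSC and 0.225% in qNSC cells. The Snrp genes took 0.751% in IPC cells and nearly the same share in both kinds of aNSC cell, 0.443% in Pdgfra+ and 0.433% in Pdgfra-, against 0.238% in qNSC cells. The Srsf genes took 0.440%, 0.286%, 0.197% and 0.140% in the same order of classes. The Sf3 genes took 0.167%, 0.147%, 0.0939% and 0.0696%, and the 3 U2af genes 0.0422%, 0.0422%, 0.0146% and 0.0204%. The step between Pdgfra+ and Pdgfra- aNSC cells was thus visible in the Hnrnp, Srsf, Sf3 and U2af shares and nearly absent from that of the Snrp genes.

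More of the 55 genes were also read per cell in the more active classes: a median of 49 in IPC, 46 in Pdgfra+ aNSC, 43 in Pdgfra- aNSC and 34 in qNSC cells, and 36 in green, 33 in red and 32 in blue qNSC cells. After each of the 80 cells with enough reads was thinned to 445311 counts, the medians were 48, 45, 44 and 33, and 34, 31.5 and 29.5 for the 3 colours. The number followed the total number of genes read in the cell, with Pearson's r of 0.84 and Spearman's rho of 0.82 over the 89 cells, as a description of cells that share classes and depth and may share animals. The share of TPM followed the number of genes read less closely over the 89 cells, with an r of 0.41 and a rho of 0.39. Within classes this was not uniform: r was 0.53 in IPC, 0.55 in Pdgfra+ aNSC, -0.36 in Pdgfra- aNSC and -0.04 in qNSC cells.

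In level over all 89 cells, in mean TPM, the highest of the 55 genes were Hnrnpk (818), which binds C-rich sequence, Snrpe (769), a protein of the Sm ring, Hnrnpa2b1 (752), Snrpg (670) and Snrpd3 (555), 2 further Sm proteins, and Srsf5 (546). Hnrnpa2b1 and Srsf5 were read in all 89 cells and Hnrnpk in 88. The lowest was Hnrnpa0, at 3.17 TPM and read in 20 cells. The highest and the lowest within the other families were Sf3b6 (334) and Sf3a2 (7.81) among Sf3 genes and U2af1l4 (163) and U2af2 (12.6) among U2af genes, while Srsf12 (11.2) and Snrpn (83.7) were lowest in theirs. Snrpn shares its exons with Snurf on the same strand, and its counts were estimated from ambiguous reads in 50 of the 51 cells that had any. For Hnrnpa1, Hnrnpa3 and Hnrnph3 the same was so in 32 of 48, 56 of 65 and 35 of 56 cells, so their levels rest in part on how the authors' counting divided reads among similar sequences. U2af1l4 overlaps Psenen and Hnrnpk overlaps Rmi1 on the opposite strand. The labels record no strand, and such reads cannot be told apart.

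IPC cells were set beside Pdgfra- aNSC cells for the step out of the stem cell classes. Of 54 measured genes 29 were past the fold and higher in IPC cells and 0 were lower, while of all 8787 measured genes 22.8% were higher and 20.5% lower. The median difference was 1.71 in mean log2(CPM + 1), against 0.20 over all measured genes. The Hnrnp family had 15 of its 20 genes higher (median difference 2.47), the Srsf family 6 of 10 measured genes (1.55), the Sf3 family 3 of 9 (1.05), the Snrp family 3 of 12 (1.2) and the U2af family 2 of 3. Most of the 29 were thus hnRNP genes, and the Sm and other snRNP proteins contributed few.

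Hnrnpa1, which binds exonic and intronic silencers and antagonises SR proteins, lies at chr15:103240432-103246692 on the plus strand (mm10, GENCODE vM21, like the gene positions below). It had 582 TPM in the lowest IPC cell, 858 at the median and 2316 in the highest, against 0, 153 and 415 TPM in Pdgfra- aNSC cells. Of the 11 Pdgfra- aNSC cells 5 had no read of the gene. Among these were the 3 with too few counts for thinning, all at 2 months. Every IPC cell was above every Pdgfra- aNSC cell. Such a full separation in this direction held for 0.0228% of measured genes. Its mean log2(CPM + 1) was 10.14 ± 0.78 in IPC cells and 4.21 ± 4.06 in Pdgfra- aNSC cells (SD over 11 cells each), and its summed CPM was 1263 (95% Poisson interval 1241 to 1285) and 133 (126 to 141), a 9.47-fold difference. In qNSC cells it was read in 24 of 60, with a median of 0 and a highest value of 576 TPM. The highest qNSC cell thus almost reached the lowest IPC cell, and in CPM no member separated every IPC from every qNSC cell (0.0823% of measured genes did so above and 0.129% below).

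Its paralog Hnrnpa2b1 differed far less between the classes. Hnrnpa2b1 had 501, 1164 and 2143 TPM at the lowest, median and highest IPC cell, against 278, 701 and 1492 TPM in Pdgfra- aNSC cells, and the cells of the classes overlapped widely. The difference of 0.80 in mean log2(CPM + 1) and the 1.87-fold ratio were not past the fold. Of the summed mean TPM of both genes, Hnrnpa2b1 accounted for 50.9% in IPC cells, 79.5% in Pdgfra+ aNSC, 86.3% in Pdgfra- aNSC and 92.7% in qNSC cells. The pair was thus near parity in IPC cells and dominated by Hnrnpa2b1 elsewhere.

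Among the other hnRNP genes, Hnrnph1, which binds G-rich sequence, had 241, 586 and 1785 TPM at the lowest, median and highest IPC cell, against 0, 106 and 613 TPM in Pdgfra- aNSC cells (4.39-fold in summed CPM). Its paralog Hnrnph2, named after its values were seen, was read in 10 of 11 IPC and 5 of 11 Pdgfra- aNSC cells and was 2.71 higher in mean log2(CPM + 1), but its summed CPM was 0.891-fold and its mean levels were 190 TPM in IPC and 171 TPM in Pdgfra- aNSC cells, so it was not past the fold. The larger member of this pair was therefore Hnrnph1 in IPC cells, where it was higher than Hnrnph2 in 10 of 11 cells, and neither stood clearly above the other in Pdgfra- aNSC cells, where Hnrnph2 was higher in 5. Hnrnpll, known for its part in alternative splicing of CD45 in T cells, had 0, 119 and 279 TPM in IPC cells, against 0, 0 and 212 TPM in Pdgfra- aNSC cells, and was read in 9 and 4 of the 11 cells. Hnrnpl, which binds CA repeats, had 16.5, 48.3 and 178 TPM in IPC and 6.60, 20.2 and 67.9 TPM in Pdgfra- aNSC cells. Both were past the fold and higher in IPC cells, with differences of 4.34 for Hnrnpll and 1.43 for Hnrnpl, and overlapped between the classes. Hnrnpu, a nuclear scaffold protein also needed to hold Xist RNA on the X chromosome, averaged 9.77 ± 1.07 in IPC and 6.93 ± 2.98 in Pdgfra- aNSC cells (SD, mean log2(CPM + 1)). Hnrnpk had 1127, 1814 and 2438 TPM in IPC cells, against 211, 729 and 1361 TPM in Pdgfra- aNSC cells. For this gene 2 of 11 Pdgfra- aNSC cells reached the IPC range, and its summed CPM was 2.17-fold higher in IPC cells. Hnrnpul1 and Hnrnpul2, of the Hnrnpu family, were nearly unread in Pdgfra- aNSC cells. The summed CPM of Hnrnpul1 was 44.1 in IPC and 1.2 in Pdgfra- aNSC cells, and Hnrnpul2, named after its values were seen, had reads in 5 of 11 IPC cells and none in Pdgfra- aNSC cells, which made it at least 22-fold higher against a limit of 3 counts over the group. Hnrnpul2 was thus measured through IPC cells alone and could only be higher in them.

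The SR protein genes divided. Srsf7, which lies at chr17:80200080-80207307 on the minus strand and whose product also serves as an adapter for mRNA export, had 291, 966 and 2049 TPM at the lowest, median and highest IPC cell, against 2.37, 145 and 831 TPM in Pdgfra- aNSC cells. Srsf3, the smallest SR protein, had 312, 911 and 1786 TPM in IPC cells, against 0, 302 and 699 TPM in Pdgfra- aNSC cells. Their summed CPM was 3.93-fold and 3.13-fold higher in IPC cells, and for both genes every IPC cell lay above the Pdgfra- aNSC median, while 3 of 11 Pdgfra- aNSC cells for Srsf7 and 5 for Srsf3 reached the IPC range. Srsf5, which lies at chr12:80945504-80950507 on the plus strand, had 148, 654 and 1112 TPM in IPC cells, against 302, 668 and 1216 TPM in Pdgfra- aNSC cells. The classes covered the same range, and the difference in mean log2(CPM + 1) was -0.19. Srsf2, a component of nuclear speckles, was 1.15 higher in mean log2(CPM + 1) and 1.97-fold higher in summed CPM, which just missed the fold, and Srsf6 (1.45), Srsf1 (1.54), Srsf11 (1.56) and Srsf10 (2.48) were past it.

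Among spliceosome components, Sf3b1, the subunit that contacts the branch site, had 94.1, 172 and 266 TPM at the lowest, median and highest IPC cell, against 0, 55.8 and 242 TPM in Pdgfra- aNSC cells. Its spread over IPC cells was small, with a mean log2(CPM + 1) of 9.48 ± 0.50, against 6.48 ± 3.37 in Pdgfra- aNSC cells (SD, n = 11 cells each). Sf3b3, another Sf3b subunit, was 7.65-fold higher in summed CPM. Of the Sm proteins, Snrpe had 744, 1880 and 3454 TPM in IPC cells, against 0, 519 and 1817 TPM in Pdgfra- aNSC cells. Snrpe (difference 2.65), Snrpf (2.32) and Snrpd1 (1.40) were past the fold. Snrpb was not, at 1.82 and 1.79-fold, and Snrpd3 was nearly even at 0.22. The Sm ring is a fixed assembly of Snrpb, Snrpd1, Snrpd2, Snrpd3, Snrpe, Snrpf and Snrpg, yet the measured differences of its genes ranged from 0.10 for Snrpd2 to 2.65 for Snrpe. U2af1, which reads the 3' splice site AG, was 2.68-fold higher, and its partner U2af2, which binds the polypyrimidine tract, differed by 0.67 and was not past the fold. Snrpn, an imprinted Sm gene expressed in brain, differed by -1.19 in mean log2(CPM + 1) while its summed CPM was 1.17-fold higher in IPC cells.

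The IPC difference was seen at both ages. At 4.5 months 27 of 55 measured genes were past the fold and higher and 1 lower (6 IPC and 4 Pdgfra- aNSC cells), against 23.6% and 29.8% of all genes measured at that age. At 2 months 27 of 54 were higher and 0 lower (5 and 7 cells), against 28.6% and 20.5%. The median over all genes was -0.32 at 4.5 months and 0.41 at 2 months, and that of the members 1.40 and 1.94. Hnrnpa1 was higher in IPC cells by 4.63 at 4.5 months and 6.50 at 2 months, and Srsf7 by 2.10 and 3.18. Srsf1 differed by -0.11 at 4.5 months and 2.63 at 2 months. When each cell was left out in turn, 28 to 34 genes were past the fold and higher and 18 of the 29 stayed so in every case, among them Hnrnpa1, Srsf7, Sf3b1 and Hnrnph1. Hnrnpk, Hnrnpl, Hnrnpc, Hnrnpdl, Srsf1, Srsf6, Srsf10, Snrpd1, Snrpe, Sf3a3 and U2af1l4 each dropped below the fold without at least 1 cell. Cycling markers moved with the classes: at least 50% of the cycling list reached 10 counts in 5 IPC, 2 Pdgfra+ aNSC, 1 Pdgfra- aNSC and 0 qNSC cells. Within a class, the 55 genes' share of TPM and the log2 summed TPM of cycling markers had a Pearson's r of 0.43 (Spearman's rho 0.31) over 11 IPC cells, 0.41 (0.71) over 7 Pdgfra+ aNSC cells, 0.64 (0.52) over 11 Pdgfra- aNSC cells and -0.09 (-0.06) over 60 qNSC cells, and the part of cycling in the difference was not tested. Immediate early genes, which respond to dissociation, had a median summed TPM of 3159 in IPC cells (0 to 10707), against 583 in Pdgfra- aNSC cells (14.03 to 22618.5), with 2 of 9 measured genes of the list past the fold and higher and 2 lower, and their part was not tested either.

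**Figure D2:**
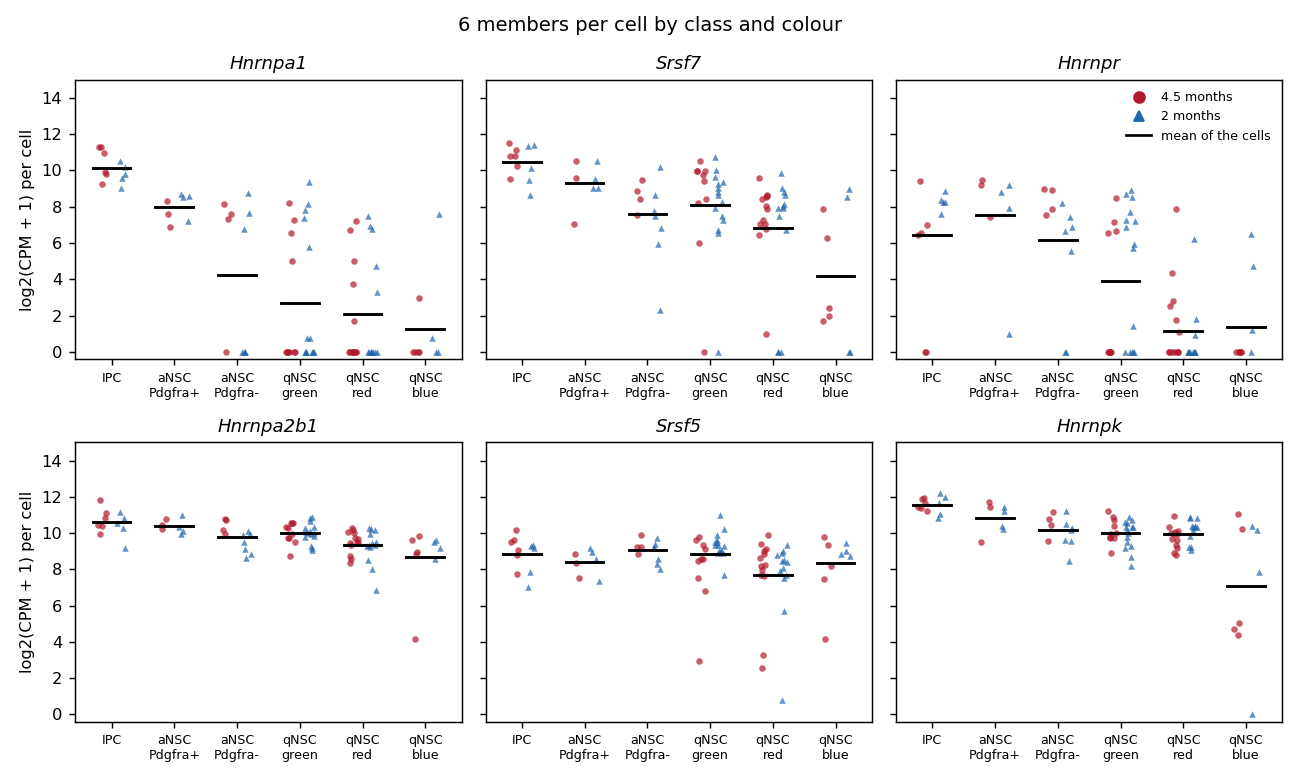
Level of 6 genes per cell as log2(CPM + 1) (vertical axis) by class and qNSC colour (horizontal axis); each point is 1 cell, circles at 4.5 months and triangles at 2 months, and lines are means over cells. Hnrnpa1 averages 10.14 in IPC and 4.21 in Pdgfra- aNSC cells with many aNSC and qNSC cells at 0, whereas Hnrnpa2b1 and Srsf5 are read in every cell.

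Pdgfra- aNSC cells were set beside qNSC cells for activation. Of 54 measured genes 13 were past the fold and higher and 0 lower, against 20.4% and 5.08% of 8033 measured genes, so the share of members was close to that of all genes. The median difference was 1.37, against 0.70 over all genes. Relative to that general shift 5 of the 54 genes were higher and 2 lower, against 8.56% and 12.8% of all genes. The 13 were 6 Hnrnp genes, 5 of 12 Snrp genes, Srsf6 and Sf3a1. The family with the largest share was here the snRNP proteins, whose median difference was 1.77.

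Hnrnpr, a close relative of the hnRNP Q protein, had 0, 34.2 and 106 TPM at the lowest, median and highest Pdgfra- aNSC cell, against 0, 0 and 92.5 TPM in qNSC cells. It was read in 9 of 11 Pdgfra- aNSC cells and 26 of 60 qNSC cells, and its mean log2(CPM + 1) was 6.19 ± 3.21 and 2.32 ± 3.21 (SD over cells). Hnrnpab followed with a difference of 3.20 and Srsf6 with 3.08. Among Sm genes, Snrpd1 (2.47), Snrpg (2.11), Snrpb (1.37) and Snrpf (1.34) were past the fold, with Snrpb2, a U2 snRNP protein, at 1.76. Snrpb had 0, 628 and 1201 TPM in Pdgfra- aNSC cells, against 0, 274 and 1031 TPM in qNSC cells. The ranges overlapped for each of these genes. Snrpb was read in 10 of 11 Pdgfra- aNSC and 51 of 60 qNSC cells and differed more in level than in detection, whereas Snrpd1 was read in 10 of 11 and 37 of 60. Hnrnpa1 was 2.01 higher and 2.68-fold higher in summed CPM.

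Several abundant members, unlike Snrpg and Snrpb, were not past the fold at this step. Hnrnpa2b1 differed by 0.26 in mean log2(CPM + 1), Hnrnpk by 0.62, Srsf7 by 0.63, Srsf3 by 0.78 and Srsf5 by 0.80. Sf3b1 was 0.81 higher in mean log2(CPM + 1) but 0.752-fold in summed CPM. Srsf7, with 2.37, 145 and 831 TPM in Pdgfra- aNSC cells, against 0, 183 and 1405 TPM in qNSC cells, thus differed between IPC and Pdgfra- aNSC cells but was at a like level in Pdgfra- aNSC and qNSC cells. Within age, 17 of 55 genes were higher and 1 lower at 4.5 months, against 31.8% and 11.9% of all genes, and 11 of 53 higher and 0 lower at 2 months, against 22.9% and 8.14%. The higher share was thus near the background at both ages. Hnrnpr, Sf3a1, Hnrnpa1 and Hnrnpa0 were the 4 genes that stayed past the fold whichever cell was left out, when 9 to 14 were. Hnrnpa0 was read in 5 of 11 Pdgfra- aNSC and 7 of 60 qNSC cells. It passed the detection filter through Pdgfra- aNSC cells alone and could hardly be called lower in them.

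Pdgfra+ and Pdgfra- aNSC cells share the submitters' class but differ in oligodendrocyte precursor markers, as given above. Of 54 measured genes 12 were past the fold and higher in Pdgfra+ cells and 1 was lower, against 25.2% and 17% of 9574 measured genes, so the higher share was near the background. The median difference was 0.96, against 0.47 over all genes. Relative to that shift 7 of the 54 were higher and 1 lower, against 18.4% and 21.7% of all genes. The 12 comprised 6 of 19 measured Hnrnp genes, 3 Srsf genes, Sf3b1 and Sf3b3, and U2af1l4. Among the Srsf genes was Srsf12, which passed the detection filter through Pdgfra+ cells alone. No Snrp gene was among the 12 higher genes, and the median difference of the 12 Snrp genes was 0.06.

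Srsf11 was read in all 7 Pdgfra+ cells. At 4.5 months the 3 cells had 133, 231 and 195 TPM and at 2 months the 4 cells had 282, 148, 163 and 189 TPM, against 0, 47.6 and 271 TPM at the lowest, median and highest Pdgfra- cell. Its mean log2(CPM + 1) was 8.35 ± 0.34 in Pdgfra+ cells and 5.30 ± 3.67 in Pdgfra- cells (SD over 7 and 11 cells). All 7 Pdgfra+ cells were above the Pdgfra- median, and 4 of 11 Pdgfra- cells reached their range. Sf3b3 had 119, 199 and 41.1 TPM in Pdgfra+ cells at 4.5 months and 0, 45.3, 96.1 and 156 TPM at 2 months, against 0, 0.45 and 91.8 TPM in Pdgfra- cells. Hnrnpa1 had 152, 353 and 213 TPM at 4.5 months and 157, 371, 387 and 367 TPM at 2 months, and was thus read in 7 of 7 Pdgfra+ cells but in 6 of 11 Pdgfra- cells, which all lay within or above the Pdgfra+ range. No member separated the 2 kinds of cell fully (0.418% of measured genes did so above and 0.0731% below). Hnrnpul1 was 37.7-fold higher in summed CPM. The gene past the fold and lower was Snrpg (-1.03), and Srsf5 (-0.66) and Snrpb (-0.48) also had lower means in Pdgfra+ cells without reaching it.

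At 4.5 months 11 of 54 genes were higher and 5 lower in Pdgfra+ cells (3 and 4 cells), against 28.4% and 30.6% of all genes, and at 2 months 14 of 55 were higher and 3 lower (4 and 7 cells), against 30.6% and 19.1%. In both directions these shares were below the background. Sf3b3 was higher by 4.14 and 4.04 and Hnrnpul1 by 3.38 and 3.64. Hnrnpm went opposite ways, at -1.21 and 3.49. Sf3b3, Hnrnpul1, U2af1l4, Srsf11 and Hnrnpm stayed past the fold whichever cell was left out, and Snrpg did not.

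**Figure D3:**
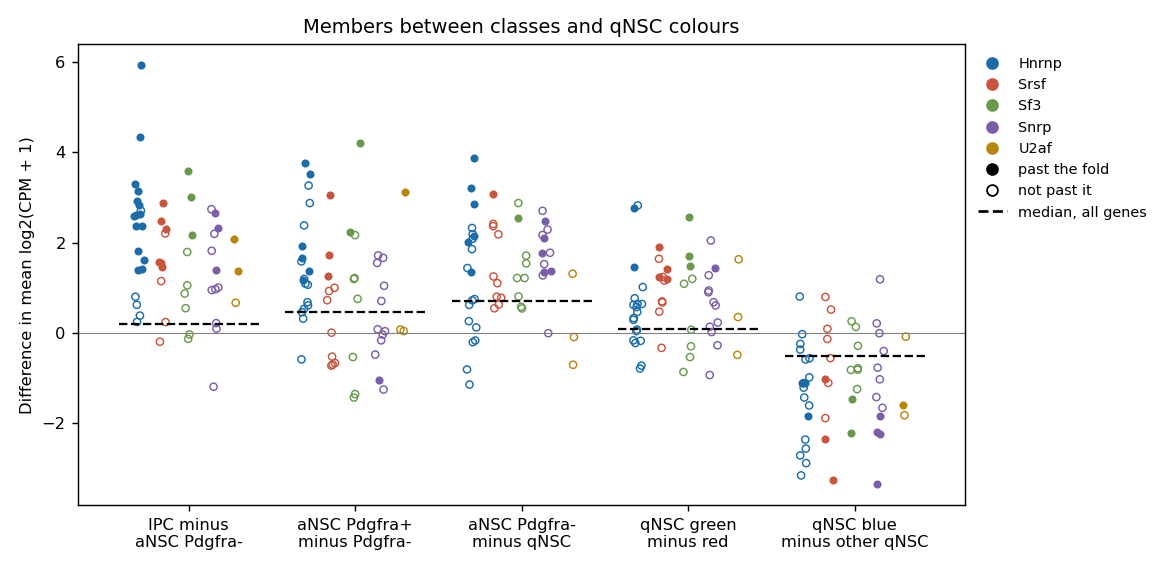
Difference in mean log2(CPM + 1) of each measured splicing factor or hnRNP gene (vertical axis) in 5 comparisons of classes and qNSC colours (horizontal axis); points are genes coloured by family, filled when past the fold, and dashed lines are medians over all measured genes. The members lie mostly above the dashed line for IPC minus Pdgfra- aNSC cells (median 1.71 against 0.20) and mostly below 0 for blue minus other qNSC cells (median -1.11 against -0.51).

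Within qNSC cells, green cells were set beside red cells. Of 54 measured genes 10 were past the fold and higher in green cells and 0 lower, against 11.1% and 6.08% of 7613 measured genes. The median difference was 0.64, against 0.09 over all genes. The Srsf family had 4 of 11 genes higher and the largest family median (1.2), the Sf3 family 3, the Hnrnp family 2 and the Snrp family 1.

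Srsf1, a founding member of the SR family, had 0, 20.8 and 145 TPM at the lowest, median and highest green cell, against 0, 4.91 and 57.3 TPM in red cells, and was read in 21 of 25 and 18 of 26 cells. Srsf7 had 0, 314 and 1405 TPM in green cells, against 0, 147 and 559 TPM in red cells. Both genes overlapped widely, and 3 green cells for Srsf1 and 6 for Srsf7 lay above every red cell. Hnrnpr was 9.83-fold higher in summed CPM, with reads in 14 of 25 green and 9 of 26 red cells. Of the Sf3a complex, Sf3a3 (2.56) and Sf3a2 (1.71) were past the fold. Srsf12 was read in 5 of 25 green and 0 of 26 red cells, at least 391-fold higher in summed CPM against a limit of 3 counts over the red cells. Srsf12 was thus measured through green cells alone and could only count among the higher Srsf genes. Hnrnpk was even, at 161, 653 and 1308 TPM in green cells, against 254, 582 and 1177 TPM in red cells, and Srsf5 was 1.16 higher in mean log2(CPM + 1) at a 1.93-fold ratio, just short of the fold. Sf3b1 was 0.86 lower in green cells.

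Within age, 9 of 54 genes were higher in green cells at 4.5 months and 0 lower, against 17.9% and 11.4% of all genes, and 15 of 54 were higher at 2 months and 0 lower, against 15.4% and 11%. The higher share was thus near the background at 4.5 months and above it at 2 months. Sf3a3 was higher by 2.42 at 4.5 months and 2.62 at 2 months, and Hnrnpr by 1.32 and 3.87. Leaving out each cell gave 8 to 13 genes, 7 of the 10 in every case; Srsf12, Srsf4 and Srsf7 depended on single cells.

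The 9 blue qNSC cells had the lowest median share of TPM of the colours, while their mean share, 0.660%, was above the 0.607% of red cells. Of 53 measured genes 0 were past the fold and higher and 13 lower than in the other 51 qNSC cells, against 5.97% and 22.6% of 7705 measured genes, so the lower share was near the background. The median difference was -1.11, against -0.51 over all genes. Relative to that shift 3 of the 53 were higher and 3 lower, against 14.5% and 11.2% of all genes. The blue cells were shallower in genes read (a median of 3405), 3 of the 9 were among the 11 shallowest cells of the study, and without those 11 cells the counts were 3 higher and 10 lower. The part of depth in the difference was not tested.

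Srsf7 had 1.82, 1.45, 41.0, 2.33 and 187 TPM in the 5 blue cells at 4.5 months and 0, 0, 236 and 306 TPM in the 4 at 2 months. The blue cells fell into 5 at or below 2.33 TPM and 4 between 41.0 and 306 TPM. Hnrnpk was also uneven, with 1247, 16.1, 558, 11.6 and 13.7 TPM at 4.5 months and 724, 0, 596 and 125 TPM at 2 months, in the same order of cells. The lowest red or green cell had 161 TPM. The low cells were in part others than for Srsf7: the cell with 1247 TPM of Hnrnpk had 1.82 TPM of Srsf7. The cell with 187 TPM of Srsf7 had 13.7 TPM of Hnrnpk. The mean log2(CPM + 1) of Hnrnpk was 2.88 lower in blue cells, but its summed CPM was 0.681-fold and it was not past the fold. Snrpd3 was read in 4 of 9 blue cells and was 3.35 lower, and Hnrnpab was 0.186-fold in summed CPM. Srsf5 was even (0.09). Snrpe was 0.40 lower in the mean and 2.21-fold higher in summed CPM, which rested on the cell at 10327 TPM. At 4.5 months 3 of 53 genes were higher and 21 lower in blue cells (5 cells), against 9.29% and 29% of all genes, and at 2 months 1 of 53 was higher and 8 lower (4 cells), against 13.4% and 24.5%. The lower share was above the background at 4.5 months and below it at 2 months. Srsf7, Snrpf, Snrpa, Hnrnpab and Sf3a1 stayed lower whichever cell was left out. Srsf2, at -1.01, was 0.01 when cells were thinned and 0.13 without the shallowest cells.

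Cells at 4.5 months were then set beside cells at 2 months within each class and colour. The medians of the summed share of the 55 genes lay close beside the spread over cells: the median was 2.24% of TPM at 4.5 months and 2.54% at 2 months in IPC cells, 1.32% and 1.58% in Pdgfra+ aNSC, 1.16% and 0.996% in Pdgfra- aNSC, 0.875% and 1.02% in green, 0.643% and 0.609% in red and 0.571% and 0.600% in blue qNSC cells. Over all 60 qNSC cells 2 of 53 measured genes were past the fold and higher at 4.5 months and 4 lower, against 3.81% and 8.1% of 7247 measured genes, and the median difference was -0.61, against -0.22. The 2 were Snrpn and Hnrnpu, and the 4 were Srsf4, Srsf10, Hnrnpl and Snrpb2.

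Snrpn, at chr7:59982495-60140219 on the minus strand, had 0, 103 and 369 TPM at the lowest, median and highest green qNSC cell at 4.5 months, against 0, 0 and 246 TPM at 2 months. At 4.5 months it had reads in 9 of 10 green cells (95% Clopper-Pearson interval 55.5% to 99.7%) and at 2 months in 6 of 15 (16.3% to 67.7%). Its mean log2(CPM + 1) was 3.05 higher at 4.5 months in green cells and its summed CPM 2.80-fold higher. In IPC cells Snrpn had 258, 0, 269, 374, 224 and 0 TPM at 4.5 months and 0, 123, 5.38, 139 and 0 TPM at 2 months. The 4 highest IPC cells were all from 4.5 months, while 2 cells of either age had no read. In red cells it was 2.08-fold higher but 0.80 in the mean, not past the fold, and in Pdgfra- aNSC cells it differed by -0.37. Its paralog Snrpb was the more abundant of the 2 genes in every class, with Snrpn at 10.9% of their summed mean TPM in IPC cells and 19% in qNSC cells.

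Srsf4 and Srsf10 were lower at 4.5 months. Srsf4 had reads in 4 of 28 qNSC cells at the older age and in 13 of 32 at the younger, with a highest cell of 146 TPM and 229 TPM. It was past the fold and lower in red (-1.63), green (-2.53) and IPC (-1.05) cells. Over all qNSC, red and green cells Srsf4 passed the detection filter through cells at the younger age alone. It could hardly be called higher there at 4.5 months. Srsf10, known from human cells as a splicing repressor when dephosphorylated, had 0, 0.685 and 207 TPM at the lowest, median and highest qNSC cell at 4.5 months, against 0, 90.6 and 413 TPM at 2 months. It was read in 16 of 28 and 27 of 32 cells. It was past the fold in red cells (-2.35) but not in green cells, where it was read in 6 of 10 cells at the older age and 12 of 15 at the younger, and in IPC cells it was high at both ages, at 215 to 562 TPM at 4.5 months and 153 to 553 TPM at 2 months. Hnrnpl was 1.28 lower over qNSC cells and 1.94 lower in red cells. Srsf2 was 3.40 lower in green cells, with reads in 6 of 10 cells at the older age and 15 of 15 at the younger.

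Hnrnpm, which represses or activates exons by binding GU-rich sequence, went opposite ways in the colours. It had 0, 37.1 and 382 TPM at the lowest, median and highest red cell at 4.5 months, against 0, 2.02 and 173 TPM at 2 months, a difference of 2.01. In green cells it had 0, 0 and 311 TPM at 4.5 months, against 0, 93.2 and 719 TPM at 2 months, a difference of -3.75. The 4 Pdgfra- aNSC cells at 4.5 months had 150, 97.3, 190 and 240 TPM, against 0.83, 32.7 and 241 TPM at the lowest, median and highest of 7 cells at 2 months. Whether the red and green differences differ was not tested. Hnrnpm overlaps March2 on the same strand.

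Hnrnpu had 0, 64.9 and 424 TPM at the lowest, median and highest qNSC cell at 4.5 months, against 0, 17.6 and 300 TPM at 2 months. It was past the fold over all qNSC cells (1.62, 2.00-fold) and in red cells (1.94, 2.96-fold), and in green cells it was 1.79 higher at 1.49-fold. Counts of Xist or Tsix separated most cells of the ages, as given above, and the part of that difference in Hnrnpu was not tested.

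By class and colour, red cells had 3 genes past the fold and higher at 4.5 months (Hnrnpm, Hnrnpu and Sf3b5) and 7 lower, against 10.4% and 14.2% of 7787 measured genes. Green cells had 1 higher (Snrpn) and 6 lower, against 11.9% and 14.3% of 8779. Pdgfra- aNSC cells had 5 higher and 7 lower, against 24% and 23% of 10129, with Hnrnpr (3.36), Hnrnpm (2.77) and Srsf1 (2.23) the highest called. Hnrnpr had 35.7, 40.7, 106 and 105 TPM in the 4 Pdgfra- aNSC cells at 4.5 months, against 0, 20.1 and 57.9 TPM at the lowest, median and highest of 7 cells at 2 months. IPC cells had 3 higher (Snrpb2, Sf3b5 and Snrpn) and 7 lower, against 12.8% and 26% of 10148. Among the 7 was Sf3b6, the Sf3b protein next to the branch-point adenosine, with 99.7, 480, 171, 448, 0 and 248 TPM in the 6 IPC cells at 4.5 months and 980, 442, 1150, 543 and 566 TPM in the 5 at 2 months. Only 1 IPC cell at 2 months lay within the range of those at 4.5 months. In each of these comparisons the share of members called was near or below that of all genes.

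The direction of the age difference was compared over red, green, Pdgfra- aNSC and IPC cells, which share no cells, for 52 members and 6231 genes measured in all 4. The members lower in mean log2(CPM + 1) at 4.5 months in all 4 were 9 (17.3%, against 8.97% of genes), namely Hnrnpdl, Hnrnph1, Hnrnpl, Snrpa1, Snrpd1, Srsf11, Srsf2, Srsf4 and U2af2. The 4 that were higher in all 4 (7.69%, against 3.90%) were Hnrnph2, Sf3b5, Snrpd2 and Srsf7. These signs count differences of any size, and the cells of 1 age may share animals across classes. In red and green cells Srsf4 was measured through cells at the younger age alone, as given above. Blue cells were not among the 4 groups. Over all qNSC cells, blue included, Hnrnph2 (-0.61) and Snrpd2 (-0.11) were lower at 4.5 months, and Sf3b5 (0.70) and Srsf7 (0.19) higher. The 9 lower members were also lower there. Hnrnph2 lies on chromosome X, and the part of the sex-linked difference between the ages in it was not tested. Hnrnpk and Hnrnpa2b1 were nearly even with age over qNSC cells, at -0.23 and -0.15. They differed by 0.03 and 0.36 in IPC cells and by 0.53 and 0.96 in Pdgfra- aNSC cells, without being past the fold.

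**Figure D4:**
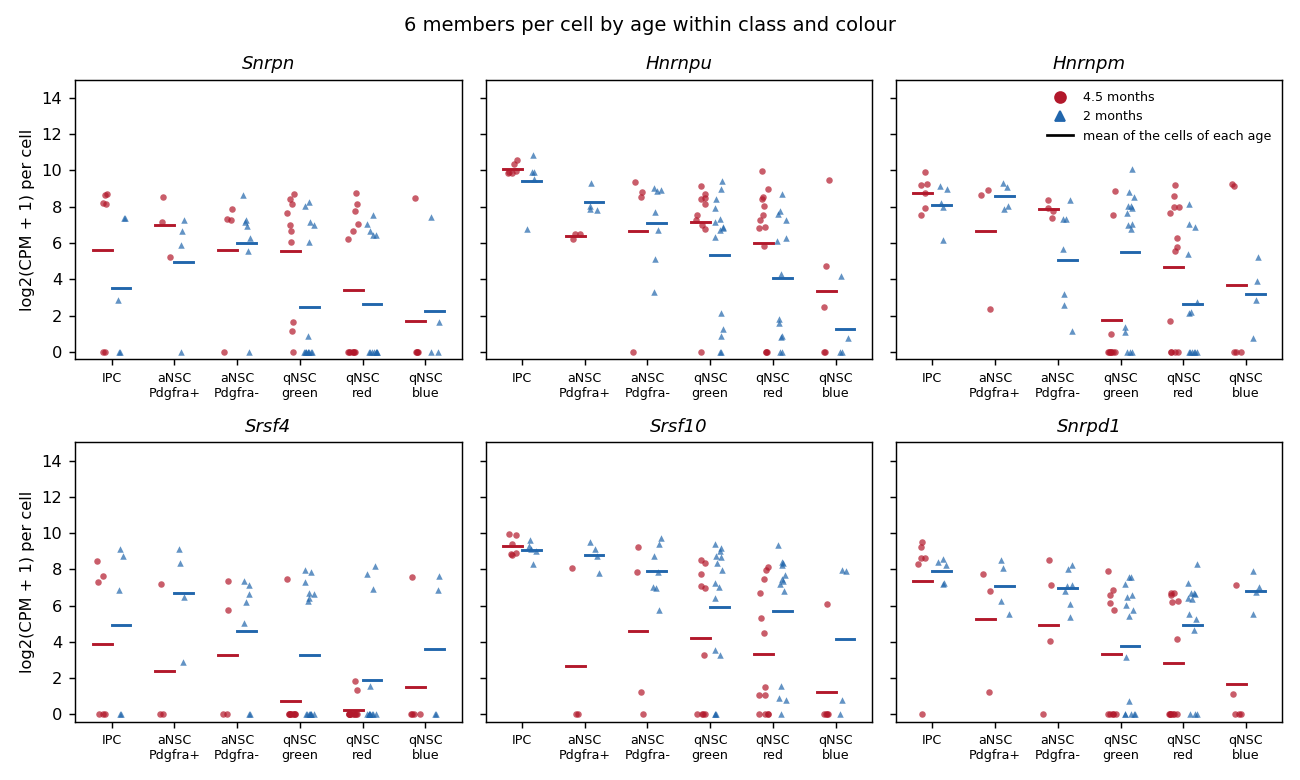
Level of 6 genes per cell as log2(CPM + 1) (vertical axis) by class and qNSC colour (horizontal axis), with cells at 4.5 months as circles left of cells at 2 months as triangles and lines for the mean of each age. Snrpn is read in 9 of 10 green cells at the older age and 6 of 15 at the younger, Srsf4 in 1 of 10 and 7 of 15, and Hnrnpm differs in opposite directions in green and red cells.

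**Figure D5:**
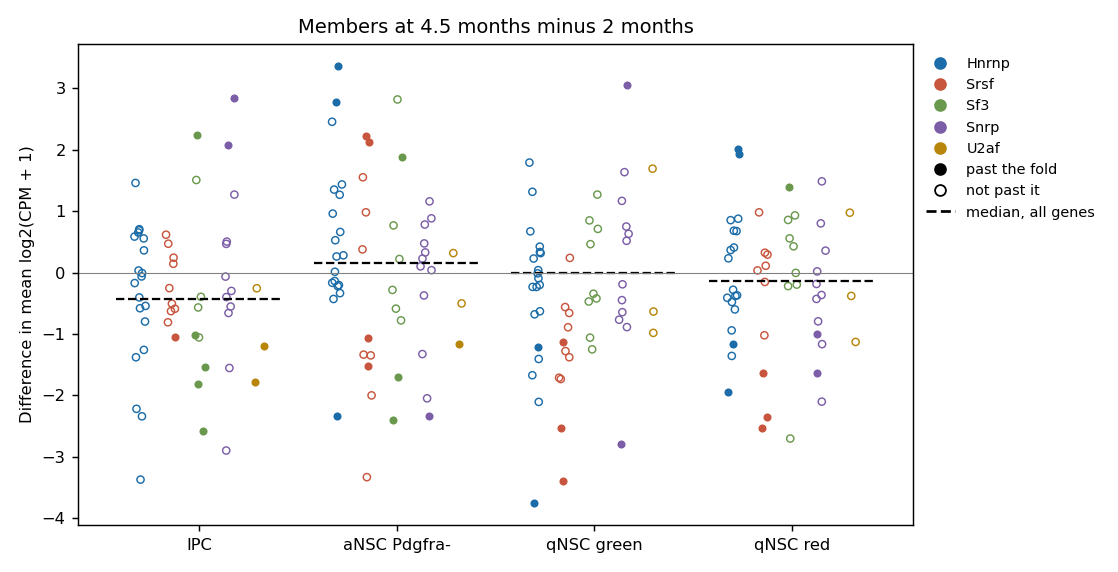
Difference in mean log2(CPM + 1) between 4.5 and 2 months of each measured splicing factor or hnRNP gene (vertical axis) in 4 groups of cells (horizontal axis); points are genes coloured by family, filled when past the fold, and dashed lines are medians over all measured genes. Filled points lie on both sides of 0 in each group, with 3 higher and 7 lower in both IPC and red qNSC cells.

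The age calls rested on few cells. Those of Srsf4 over all qNSC, red and green cells could hardly have gone the other way, as given above. Leaving out each cell in turn, Snrpn stayed higher in green and in IPC cells and over all qNSC cells, Srsf4 stayed lower over all qNSC and in red and green cells, Srsf10 stayed lower over all qNSC and in red cells, and Sf3b6 stayed lower in IPC cells. Hnrnpu was lost over all qNSC cells but kept in red cells, where Hnrnpm also stayed higher. Hnrnpl and Snrpb2 over all qNSC cells, and in green cells Hnrnpm, Srsf2, Hnrnpa3, Snrpa and Srsf11, each dropped below the fold without at least 1 cell. Srsf4 and 5 of the other lower genes of IPC cells were lost in the same way, as were Sf3b5 and Snrpb2 among the higher. In green cells 7 of 9 measured immediate early genes and 6 of 7 oligodendrocyte markers were past the fold and higher at 4.5 months. The share over all measured genes was 11.9%. Summed TPM of oligodendrocyte markers over the 25 green cells had a median of 0.89 and reached 24810 in 1 cell. How far that cell carried the oligodendrocyte calls was not tested, nor was the part of either list in the age differences. In Pdgfra- aNSC cells Hnrnpr, Hnrnpm and Srsf1 stayed higher and none of the 7 lower genes was kept in every case.

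Other spliceosome and splicing genes, from lists outside the 55, were read in the same comparisons. Between IPC and Pdgfra- aNSC cells, where 22.8% of all measured genes were higher and 20.5% lower, 13 of 41 measured core spliceosome proteins (31.7%) were past the fold and higher and 0 lower, with Snrnp40, a U5 snRNP protein, 4.69 higher. Of 10 Lsm proteins, which form the ring of the U6 snRNP or of decay complexes, 5 were higher and 1 lower, and of 13 genes for Sm ring assembly 4 were higher and 0 lower. Of 24 SR-related proteins and SR protein kinases 6 (25%) were higher, close to the background, and 0 lower, among them the kinase Clk3 (2.87). Of 46 other RNA-binding splicing regulators 23 (50%) were higher and 3 lower. Highest were Elavl4, a neuronal regulator (mean log2(CPM + 1) of 8.08 in IPC and 2.34 in Pdgfra- aNSC cells), and Ptbp2, the neural polypyrimidine tract binding protein (7.25 and 2.22). Lowest was Msi2, a stem cell RNA-binding protein (2.20 and 4.75). The regulators thus had genes past the fold in both directions, where the 55 genes had them in 1.

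Between Pdgfra- aNSC and qNSC cells 6 of 40 core proteins (15%) were higher and 1 lower, and 9 of 42 other regulators (21.4%) higher and 1 lower, near or below the 20.4% of all genes that were higher. Between Pdgfra+ and Pdgfra- aNSC cells 10 of 42 core proteins (23.8%, against 25.2% of all genes) were higher and 2 lower, with Prpf39 the highest (4.33), and Msi2 was 3.74 lower in Pdgfra+ cells. In blue qNSC cells 1 of 38 core proteins was higher and 14 lower (36.8%, against 22.6% of all genes), and 8 of 10 Lsm genes were lower. Between green and red cells 4 of 36 core proteins were higher (11.1%, the same as over all genes) and 0 lower. With age, 5 of 10 Lsm genes were higher and 1 lower at 4.5 months in green cells, where 11.9% and 14.3% of all genes were. In Pdgfra- aNSC cells 0 Lsm genes were higher and 4 of 10 lower, where 24% and 23% of all genes were. Core proteins in IPC cells had 6 of 44 higher (13.6%) and 13 lower (29.5%), close to the 12.8% and 26% of all genes.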

How the data were processed

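RNA of 89 single cells was measured by full-length cDNA sequencing. The authors deposited RSEM expected counts and TPM per gene; STAR, RSEM and the mm10 build are named in the submitters' processing notes, and versions and annotation are not given in the sources used here. Deposited counts were not whole in 4.44% of values (tolerance 1e-06) and were rounded for detection, limits and intervals; reads carry no molecular identifiers, so intervals (95%) and the limit of 3 counts cover counting error only. No 2 cells were identical. Sample groups follow the labels and the submitters' table of classes and colours. From the counts, CPM, mean log2(CPM + 1) and summed CPM were computed, and the call rule given above was checked on simulated data. The changes planted there were larger than 2-fold and lay in genes read in most cells. Changes in sparsely read members were not covered by that check. Ages, class pairs and colours were compared with no test. The members, lists and rules were chosen with earlier results of these data known. Genes named were members past the fold (at most 12 each way, and all in the rarer direction), 19 preset members, the highest and lowest of each family, and up to 3 each way from each related list; others are marked. Alternatives were TMM scaling (edgeR 4.0.16), TPM, a pseudocount of 10, 50% or no detection filter, a fold of 1.5, thinning to 445311 counts, centring, and leaving out cells. Gene positions come from GENCODE and promoters from RefSeq; no protein sequence was used here. Python 3.11.15, numpy 2.4.6, pandas 2.3.3 and scipy 1.17.1 were used.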

Additional observations from a re-analysis of the deposited data

How the results depend on the processing

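No paired analysis was possible because the results come from no test and the replicate numbers only name cells. Each count below is of members past the fold. Percents in brackets give the share over all measured genes under the same setting. With a fold of 1.5, counts of 53 to 55 measured members were 26 higher (34.7%) and 2 lower (10.6%) for Pdgfra- aNSC over qNSC. They were 22 (35%) and 5 (23.4%) for Pdgfra+ over Pdgfra- aNSC, 24 (23.7%) and 1 (13.6%) for green over red, and 3 higher (12.7%) for blue over other qNSC cells. For 4.5 over 2 months they were 14 lower (19.8%) in qNSC, 7 higher (20.1%) and 11 lower (25.1%) in red, and 3 (21.8%) and 15 (24.6%) in green cells. They were 9 higher (32.1%) in Pdgfra- aNSC, and 6 (19.1%) and 11 (34.8%) in IPC cells. Centred on the median of all genes, the member counts were 5 (8.56%) and 2 (12.8%) for Pdgfra- aNSC over qNSC, 7 higher (18.4%) for Pdgfra+ aNSC, and 3 (14.5%) and 3 (11.2%) for blue. With age they were 2 lower (5.06%) in qNSC, 5 higher (12.6%) in red and 2 lower (18%) in IPC cells. Under TMM scaling, whose factors ran from 0.146 to 1.79, Pdgfra+ aNSC had 0 lower (16.7%) and blue cells 1 higher (8.11%) and 8 lower (19.2%). With TPM Pdgfra+ aNSC had 0 lower (15.6%) and blue cells 1 higher (4.37%). A pseudocount of 10 gave 0 lower (9.96%) for Pdgfra+ aNSC and 5 higher (3.65%) for green over red. With age it gave 1 higher (0.676%) and 2 lower (1.9%) in qNSC, 3 lower (6.06%) in red and 3 lower (14.3%) in IPC cells. A 50% detection filter gave 2 lower (6.86%) with age in qNSC and 4 (11.9%) in red cells. Thinning gave 3 higher (9.84%) and 7 lower (25.2%) for blue cells. Without the 11 shallowest cells, 1 was lower (21.2%) in IPC than in Pdgfra- aNSC cells, 3 were higher (9.62%) in blue cells and 11 lower (26.2%) with age in Pdgfra- aNSC cells. Srsf2 in blue cells turned to 0.00593 when thinned and 0.133 without those cells. The summed ratio alone, an alternative chosen after seeing the data like leaving out each cell, gave 2 lower (15.2%) for Pdgfra- aNSC over qNSC and 2 higher (15.8%) for blue. With age it gave 8 higher (21.8%) in red, 2 (22.1%) and 10 (26.3%) in green and 11 lower (33.3%) in Pdgfra- aNSC cells. Leaving out each cell gave 28 to 34 higher and 0 lower for IPC over Pdgfra- aNSC, 9 to 14 and 0 to 1 for Pdgfra- aNSC over qNSC, 10 to 15 and 0 to 3 for Pdgfra+ over Pdgfra- aNSC, 8 to 13 and 0 to 1 for green over red, and 0 to 2 and 10 to 13 for blue. With age it gave 1 to 2 higher and 2 to 6 lower in qNSC, 3 to 6 and 5 to 8 in red, 1 to 2 and 4 to 9 in green, 5 to 9 and 2 to 11 in Pdgfra- aNSC, and 2 to 4 and 2 to 9 in IPC cells. The causes of these changes were not tested. The IPC over Pdgfra- aNSC count of higher members was 24 to 39 under every alternative run. Of the single members' values past the fold, 2 changed sign under an alternative, both given above for Srsf2. Depth limits members with few reads: in the shallowest cells a gene listed at 0 may be expressed.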
